A study of Mus musculus with 2 samples.

Results

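The genes described here are the mouse microRNA genes from Mir3057 to Mir3113, a block of numbered names that includes Mir3059, which lies within the glycosyltransferase gene Mgat4c. Members were taken from the count tables as every gene whose GENCODE name has a number in that range, with any suffix, outside the imprinted Dlk1-Dio3 region of chromosome 12, which holds a large microRNA cluster. The tables list 46 such genes among 1973 microRNA genes. GENCODE M21 has 60 genes with these names, of which 4 lie in the left-out region and 10 others (Mir3065, Mir3069, Mir3073b, Mir3074-2, Mir3084-1, Mir3087, Mir3096, Mir3107 and both genes called Mir3068) were not analysed here. The genes had been measured by microRNA sequencing of total RNA, limited to RNA under 30 nucleotides, from the forebrain of healthy B6NCrl mouse embryos at embryonic day 13.5, with male and female tissue pooled. There were 2 libraries in 1 group, biological replicates 1 and 2, with separate biosamples and the same donor entry, so the spread between them may be partly technical. No other genotype, treatment or stage was sampled, and no comparison between conditions was possible.

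A microRNA is cut from a hairpin in a longer transcript, first by Drosha in the nucleus and then by Dicer in the cytoplasm, and either arm of the hairpin (5p or 3p) can be loaded into an Argonaute protein. The loaded strand finds its target messages mainly through its seed, bases 2 to 8. Many hairpins lie inside an intron of a host gene and are made from its transcript. In mirtrons the spliced intron itself folds into the hairpin and splicing takes the place of Drosha, and in tailed mirtrons only 1 end of the hairpin is an intron end. MicroRNA numbers are given in the order of registration. Within this block the numbers followed the genome: each of the 45 steps from a gene to the next number went forward by chromosome name, sorted as text, and then by position. A number inside the block therefore holds its place in a sorted list and no age. The evolutionary age implied by the working name "young" was not tested, since the files hold 1 species.

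The sequences that the results turn on are printed 5′ to 3′ from RefSeq (GRCm38.p6), with the seed in capitals unless stated otherwise. First come the microRNAs of the 4 most abundant genes and of Mir3059, for which the seed is the part that selects targets.
miR-3099-5p: cCAGCUUCcuuccagcccuug
miR-3099-3p: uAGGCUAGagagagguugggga
miR-3074-5p: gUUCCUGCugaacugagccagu
miR-3102-5p: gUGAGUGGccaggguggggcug
miR-3102-5p.2: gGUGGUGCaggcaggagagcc
miR-3102-3p.2: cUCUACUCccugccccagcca
miR-3102-3p: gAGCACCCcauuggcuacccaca
miR-3093-5p: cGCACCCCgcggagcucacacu
miR-3093-3p: uGUGGACAccgugggagguugg
miR-3059-5p: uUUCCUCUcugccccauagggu
miR-3059-3p: cCUCUAGGgaagagaagguugg
RefSeq held mature sequences for 43 of the 46 genes, 20 of them detected, and the 83 sequences had 82 distinct seeds. The shared seed was CUGGCUG, in miR-3064-5p and miR-3085-3p.
miR-3064-5p: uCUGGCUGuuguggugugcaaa
miR-3085-3p: uCUGGCUGcuauggcccccuc
Of the 39 mature sequences of detected genes, 33 had a seed found in no other of the 1738 mouse mature sequences in the table. A detected gene outside the block shared a seed with 1 of the 39: Mir702 has UGAGUGG, as does miR-3102-5p, and held 348 and 218 counts (70.1 ± 20.3 CPM, SD, n = 2). The counts are per hairpin gene, so how reads divide between 5p and 3p arms was not measured.

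Depth was close in the 2 libraries. Replicate 1 held 10631040 reads with 4117752 (38.7%) on microRNA genes, and replicate 2 held 10452225 with 3908953 (37.4%). Reads that map to several places, 40.6% and 43.9% of all reads, are in a row of their own and were taken to add no count to a gene. A count is worth 0.243 CPM (counts per 1000000 gene counts) in replicate 1 and 0.256 CPM in replicate 2. The labelled tissue was checked with Mir92b and Mir137, abundant in neural progenitors and neurons, at 13430 ± 660 and 7852 ± 1559 CPM. Mir10a and Mir10b, which lie in the Hox clusters that the forebrain does not use, were at 216 ± 66.0 CPM (1083 and 663 counts) and 119 ± 36.5 CPM (596 and 364 counts). Both means were above those of all genes of the block except Mir3099 and Mir3074-1. Whether other tissue added to the counts of the block was not tested.

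Of the 46 genes, 21 (45.7%) were detected, meaning at least 10 counts on their own strand in each library, against 19.1% of all 1973 listed genes. That background includes 931 genes outside the numbered names, such as let-7 genes and genes named Gm. Only 15 (1.61%) of those were detected, and 75.9% of them have a copy among the annotated microRNAs, so 19.1% is a low background. Of the 46 genes, another 18 had counts in both libraries but under that minimum, and 4 had counts in 1 library only. Mir3073a, Mir3090 and Mir3092 were at 0 in both libraries, which allows up to 0.729 CPM in replicate 1 and 0.767 CPM in replicate 2, for counting error only. Detection here is a statement about depth: 10 counts correspond to 2.43 and 2.56 CPM, and a gene under that level was not measurable with precision.

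**Figure D1:**
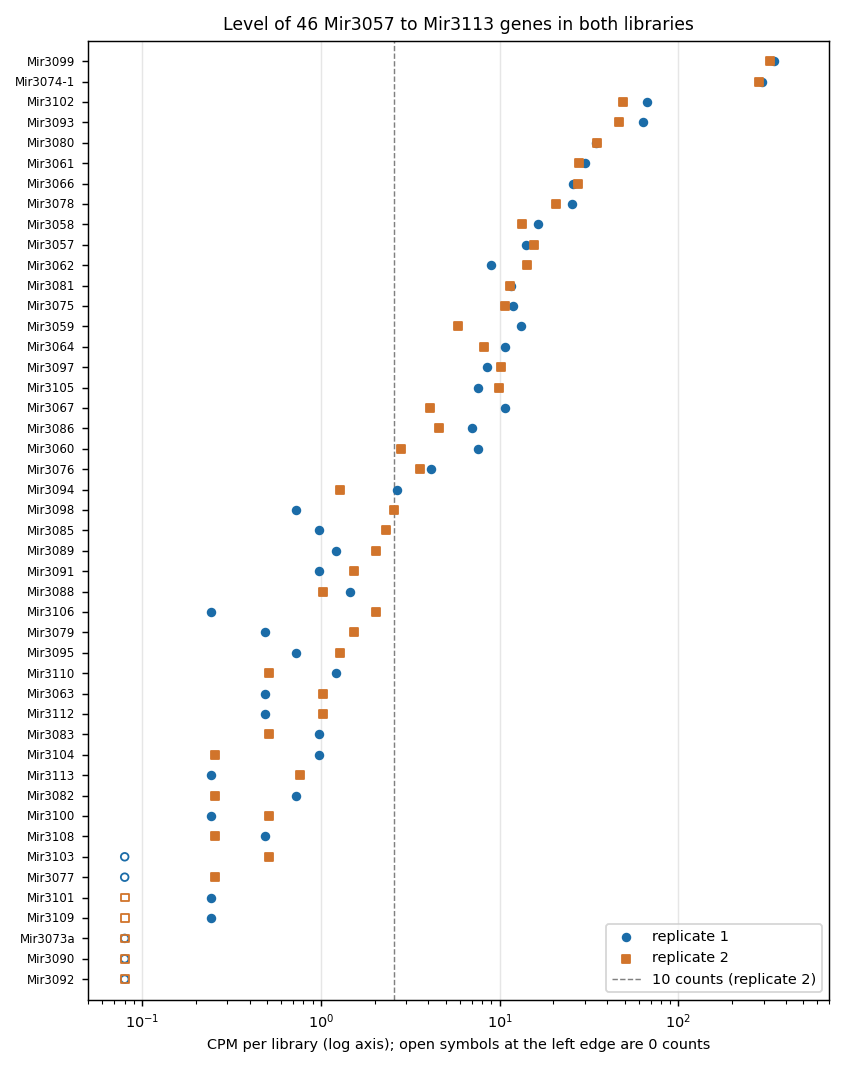
Level of each of the 46 genes in replicate 1 (circles) and replicate 2 (squares), in CPM on a log axis, ordered by mean, with 0 counts drawn as open symbols at the left edge and the 10-count minimum of replicate 2 as a dashed line. Mir3099 and Mir3074-1 stand apart with means of 335 and 289 CPM, and from Mir3094 downward each gene has at least 1 library under the minimum.

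Together the 46 genes held 4258 counts in replicate 1 and 3719 in replicate 2. Their share of gene counts was 0.103% (95% Wilson interval 0.1003 to 0.1066) and 0.0951% (0.0921 to 0.0982), or 0.0993% ± 0.00584 (SD, n = 2). The sum was uneven: Mir3099 and Mir3074-1 made up 62.8% of it, and the leading 4 genes 74.2%. Among detected genes the median level was 11.7 CPM, against 137 CPM for all 377 detected microRNA genes. No gene of the block passed 1000 CPM, 2 passed 100 CPM and 13 passed 10 CPM. The highest detected gene was 86.8-fold above the lowest.

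Mir3099 (ENSMUSG00000092815.1) was the most abundant, with 1417 and 1270 counts, or 344 and 325 CPM (335 ± 13.6, SD, n = 2), rank 137 among all listed genes. It lies at chr7:6803587-6803670 (GRCm38, plus strand) within a 169340-base intron of Usp29, a ubiquitin-specific protease gene of the imprinted Peg3 domain. Mir3074-1 (ENSMUSG00000092741.1) followed with 1215 and 1108 counts, or 295 and 283 CPM (289 ± 8.21), rank 148. The gap from each of these genes to the next was larger than the spread between the libraries, and Mir3074-1 was 4.98-fold above the gene that came next.

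Mir3074-1 lies at chr13:63301199-63301283 (minus strand) in an intron of Fancc, a Fanconi anaemia DNA repair gene, and directly opposite Mir24-1, which is on the plus strand. Its annotated mature strand and miR-24-3p pair over 20 nucleotides because they are read from opposite strands of the same DNA. The paired run is in capitals here, to show where reads from this locus can be told apart by strand.
miR-3074-5p: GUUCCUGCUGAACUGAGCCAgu
miR-24-3p: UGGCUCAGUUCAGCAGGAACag
Own-strand reads of Mir3074-1 outnumbered the opposite-strand reads of that locus, 1215 against 43 in replicate 1 and 1108 against 37 in replicate 2. Both Mir3074-1 and Mir24-1 have copies on chromosome 8 (Mir3074-2 and Mir24-2), and a read that fits both copies was taken not to be counted. RefSeq lists miR-3074-5p for another gene too, so under that assumption a read of exactly this strand would add no count. Which reads make up the counts of Mir3074-1 was not measured. Counts on both strands are therefore uncertain, and the multi-mapped share that falls to either microRNA was not measured. The neighbours on the plus strand, Mir27b at 415 bases and Mir23b at 642 bases, held 500 ± 26.7 and 5945 ± 733 CPM. Mir27b and Mir23b have copies as well (Mir27a and Mir23a).

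Mir3102 and Mir3093 came next and could not be ordered, since their means differed by less than their spread. Mir3102 (ENSMUSG00000093296.1) held 276 and 192 counts (58.1 ± 12.7 CPM). It fills a whole 104-base intron of Arhgef17, a guanine nucleotide exchange factor gene, at chr7:100882306-100882409 (minus strand). Its 4 annotated mature strands lie along that intron at bases 1 to 22 (5p), 23 to 43 (5p.2), 60 to 80 (3p.2) and 81 to 103 (3p), so miR-3102-5p printed above begins with the GU of the splice donor. Mir3093 (ENSMUSG00000092988.1) held 262 and 181 counts (55.0 ± 12.2 CPM). It lies at chr3:88215171-88215257 (plus strand) in an intron of the long non-coding RNA gene Gm3764, 341 bases from Mir9-1, a hairpin of the neural microRNA miR-9. Mir9-1 itself is not analysed here; the listed gene Gm25641, which lies on the other strand there, had 410 and 387 reads opposite to its own strand and has copies (Mir9-2 and Mir9-3).

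Each of the next 4 genes exceeded the one after it by more than the larger SD of the pair. An SD from 2 libraries is itself uncertain and can lie below counting error, and this order was not tested. Mir3080 held 143 and 138 counts (35.0 ± 0.407 CPM), in an intron of the transcriptional coregulator gene Tcf20. Mir3061 held 124 and 109 counts (29.0 ± 1.58 CPM) and lies in the 3′ UTR exon of Ppp2ca, the catalytic subunit alpha of protein phosphatase 2A. The non-coding genes 9430098F02Rik and Gm26551 overlap it on the other strand, where it had 0 reads in both libraries. Mir3066 held 106 and 107 counts (26.6 ± 1.15 CPM) in a 1606-base intron of Nol10, a nucleolar protein gene. Mir3078 held 105 and 81 counts (23.1 ± 3.38 CPM) and lies in an exon of Mir124a-1hg, the long non-coding host of a hairpin of the neuronal microRNA miR-124, 444 bases from Mir124a-1. That gene held only 8 and 6 counts; it has copies (Mir124a-2 and Mir124a-3), whose shared reads would stand in the multi-mapped row.

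Further down, the order of most neighbouring genes could not be told from the spread between 2 libraries. Mir3058, in an intron of Nudt4 (a Nudix hydrolase), held 68 and 52 counts (14.9 ± 2.27 CPM). Mir3057 held 58 and 61 counts (14.8 ± 1.07 CPM) and crosses a splice junction of Apba3, an adaptor protein gene of the X11 family, with 26 of its bases in a coding exon. Mir3062, which covers an intron of Pfas (an enzyme of purine synthesis), held 37 and 56 counts (11.7 ± 3.78 CPM). Mir3081, in an intron of the hedgehog co-receptor gene Boc, held 48 and 45 counts (11.6 ± 0.102 CPM). Mir3075, in an intron of the transcriptional coactivator gene Zmiz1, held 49 and 42 counts (11.3 ± 0.817 CPM). The means of these 5 genes spanned 11.3 to 14.9 CPM, while the 2 libraries of Mir3062 alone were at 8.99 and 14.3 CPM.

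Mir3059 (ENSMUSG00000092952.1) held 54 counts in replicate 1 and 23 in replicate 2, or 13.1 and 5.88 CPM (9.50 ± 5.11, SD, n = 2), rank 307 of all listed genes. It lies at chr10:101772692-101772772 (plus strand), near the middle of a 182041-base intron of Mgat4c, with 90741 bases to the upstream splice site and 91219 to the downstream one. Mgat4c belongs to a family of N-acetylglucosaminyltransferases that branch N-linked sugar chains. The hairpin is 81 bases long and neither of its ends is an intron end. No read was counted opposite to it in either library. RefSeq lists miR-5616-5p with the seed UUCCUCU of miR-3059-5p, and no detected gene outside the block has a seed of either arm.

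The remaining detected genes lay below 10 CPM. Mir3105 held 31 and 39 counts (8.75 ± 1.73 CPM) in an intron of Shank2, a postsynaptic scaffold gene. Mir3067 held 44 and 16 counts (7.39 ± 4.66 CPM) in an intron of Smoc1, a secreted calcium-binding protein gene. Mir3086 held 29 and 18 counts (5.82 ± 1.72 CPM) in an intron of Hspa12a, of the Hsp70 family. Mir3060 held 31 and 11 counts (5.17 ± 3.33 CPM) in an intron of the RING finger gene Rnf215, its lower library 1 count above the minimum. Mir3064, Mir3097 and Mir3076, the other detected genes of this range, are described with the splice sites. Just under the minimum stood Mir3094 with 11 and 5 counts, Mir3098 with 3 and 10 and Mir3085 with 4 and 9. Mir3098 lies in the 3′ UTR exon of the mitochondrial ribosomal protein gene Mrpl51 and has annotated copies, so its count may be too low.

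All 21 detected genes lie within a host gene on the same strand, as do 40 of the 46, and 264 of the 377 detected genes in the whole table. For 19 of the 21 that host codes for a protein; the exceptions were Mir3093 and Mir3078. The 6 genes with no host on their strand (Mir3079, Mir3083, Mir3085, Mir3089, Mir3090 and Mir3110) had 0 detected, where 13.1% of all listed genes so placed were detected. Of 24 genes inside an intron and more than 6 bases from either of its ends, 13 were detected, against 29.8% (183 of 615) of all listed genes so placed. Of 4 genes inside an exon, 2 were detected, against 30.7% (50 of 163). These counts are small and were not tested. How much host transcript the forebrain held was not analysed here, since the tables list microRNA genes.

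**Figure D2:**
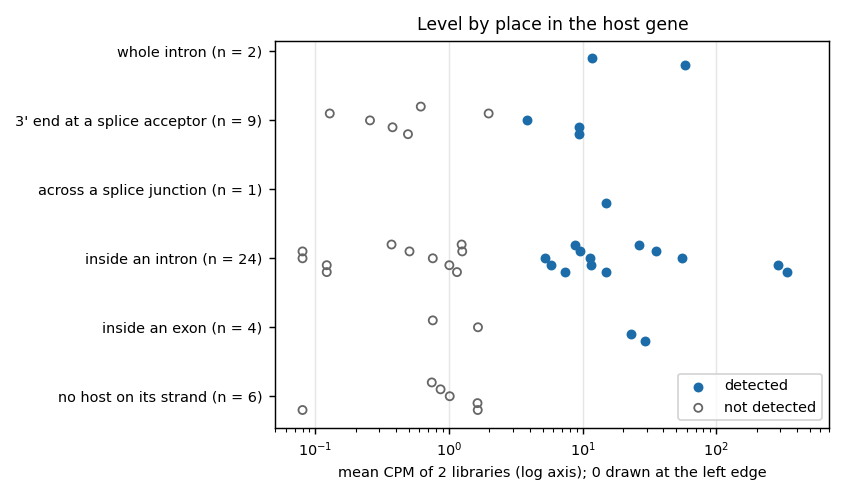
Mean level over 2 libraries (CPM, log axis, 0 drawn at the left edge) by where the hairpin lies in its host gene, with filled circles for the 21 detected genes and open circles for the others; vertical spread within a class has no meaning. The 2 genes above 100 CPM are inside introns, and 3 of the 9 hairpins that end at a splice acceptor were detected, all under 10 CPM.

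A distinct placement was shared by 9 genes: the 3′ end of the hairpin falls within 6 bases of the end of an intron, as in a tailed mirtron. That limit was chosen after the positions were seen. Of these, 3 were detected, and 7.07% (13 of 184) of all listed genes with that placement were. Mir3064 held 44 and 32 counts (9.44 ± 1.77 CPM), in Ddx5, an RNA helicase that is itself a partner of Drosha. Mir3097 held 35 and 40 counts (9.37 ± 1.23 CPM), in Rgs12, a regulator of G protein signalling. Mir3076 held 17 and 14 counts (3.85 ± 0.387 CPM), in the transketolase gene Tkt. The other 6 were Mir3094 (in Nfx1), Mir3104 (in Brsk2), Mir3082 (in Stub1), Mir3100 (in Dmpk), Mir3103 (in BC017158) and Mir3077 (in Sap18), each with at most 11 counts in a library.

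The hairpins of the detected genes of this kind, of Mir3062 and of the undetected Mir3094 and Mir3077 are printed to show the intron ends. Capitals mark the AG at the end of the intron and, in Mir3062, the GU at its start.
Mir3064: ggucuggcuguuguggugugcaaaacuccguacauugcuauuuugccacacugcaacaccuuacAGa
Mir3097: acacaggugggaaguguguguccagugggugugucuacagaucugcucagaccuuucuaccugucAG
Mir3076: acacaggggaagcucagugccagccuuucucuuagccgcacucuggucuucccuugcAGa
Mir3062: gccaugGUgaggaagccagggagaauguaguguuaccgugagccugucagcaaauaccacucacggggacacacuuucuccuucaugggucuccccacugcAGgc
Mir3094: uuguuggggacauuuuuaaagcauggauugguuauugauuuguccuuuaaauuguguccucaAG
Mir3077: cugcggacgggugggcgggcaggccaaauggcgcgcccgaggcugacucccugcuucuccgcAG
In Mir3064 and Mir3076, 1 base past the AG belongs to the following exon, while Mir3097, Mir3094 and Mir3077 end with the intron. The annotated 3p microRNA ended exactly at the intron end in 7 of the 9 genes (Mir3076, Mir3077, Mir3082, Mir3094, Mir3097, Mir3100 and Mir3103) and 1 base from it in Mir3064 and Mir3104. Mir3062 was different: its hairpin spans the whole 97-base intron of Pfas with 8 exon bases, and miR-3062-3p ends 21 bases before the intron does. Mir3102 and Mir3062, the 2 hairpins that span a whole intron, were both detected, where 7 of 24 listed genes of that kind (29.2%) were.

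Hairpin size, base composition and predicted folding overlapped between the detected genes and the others. Detected genes had hairpins of 60 to 105 bases (median 85) and the others 63 to 96 (median 82). GC content, over the genes with a RefSeq hairpin, was 42.2 to 69.0% (median 55.4, n = 19) and 34.4 to 73.4% (median 53.7, n = 20). The minimum free energy predicted by ViennaRNA ran from −65.4 to −21.3 kcal/mol (median −41.0) in the detected genes and from −46.7 to −20.9 (median −37.2) in the others. The lowest energy was that of Mir3061, and the highest among detected genes that of Mir3076, the shortest of the hairpins. These differences were not tested.

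The 2 libraries were compared with each other gene by gene, to see which values differ by more than counting error. With 1 library a side the test says nothing about a condition. Of 475 microRNA genes with at least 10 counts over both libraries, 38.9% passed the exact binomial test (Benjamini-Hochberg adjusted p under 0.05), 20.8% lower and 18.1% higher in replicate 2, so a difference beyond counting error was common. Among 27 genes of the block with enough counts, 6 passed, 5 of them lower in replicate 2 and 1 higher, and 7 had an unadjusted p under 0.05. The share that passed is not above that of the table, but the block has lower counts, where the test finds fewer differences. Detected genes had a median of 11.7 CPM in the block and 137 CPM in the whole table. The shares therefore do not show whether the block differs less between the libraries. The median log2 ratio of replicate 2 over replicate 1 was −0.038 in the 21 detected genes, 12 of them lower and 9 higher, against 0.026 in all detected genes, and 17 of the 21 were within 1.5-fold.

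Mir3059, Mir3067 and Mir3060, 3 of the 27 genes of the block tested, were past the test with a log2 ratio beyond 1 in size. Of all 475 genes tested, 16 (3.37%) were. These shares too compare genes of unlike level, and large ratios are more frequent at low counts. For Mir3059 the log2 ratio was −1.03 (95% exact interval −1.82 to −0.32, adjusted p = 0.00903 in the exact binomial test), from 54 and 23 counts. Mir3067 gave −1.25 (−2.20 to −0.42, adjusted p = 0.00585, exact test) and Mir3060 −1.28 (−2.45 to −0.28, adjusted p = 0.0233, exact test). All 3 were at 13.1 CPM or lower in both libraries, and their intervals reach from a small difference to a more than 4-fold one for Mir3067 and Mir3060. Mir10a and Mir10b, the Hox cluster microRNAs, also had fewer counts in replicate 2 (663 against 1083 and 364 against 596), and their part in these differences was not tested. Mir3102 and Mir3093 were lower in replicate 2 by less, with log2 ratios of −0.34 (−0.61 to −0.069) and −0.35 (−0.63 to −0.071). Mir3062 was the gene higher in replicate 2, at 0.77 (0.16 to 1.42). These last 3 calls were close to the threshold, with adjusted p = 0.0335, 0.0355 and 0.0334 in the exact test, and they were lost when all 720 genes with a count were tested (0.0505, 0.0534 and 0.0503). The call of Mir3062 was also lost with library totals (adjusted p = 0.0689, exact test).

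**Figure D3:**
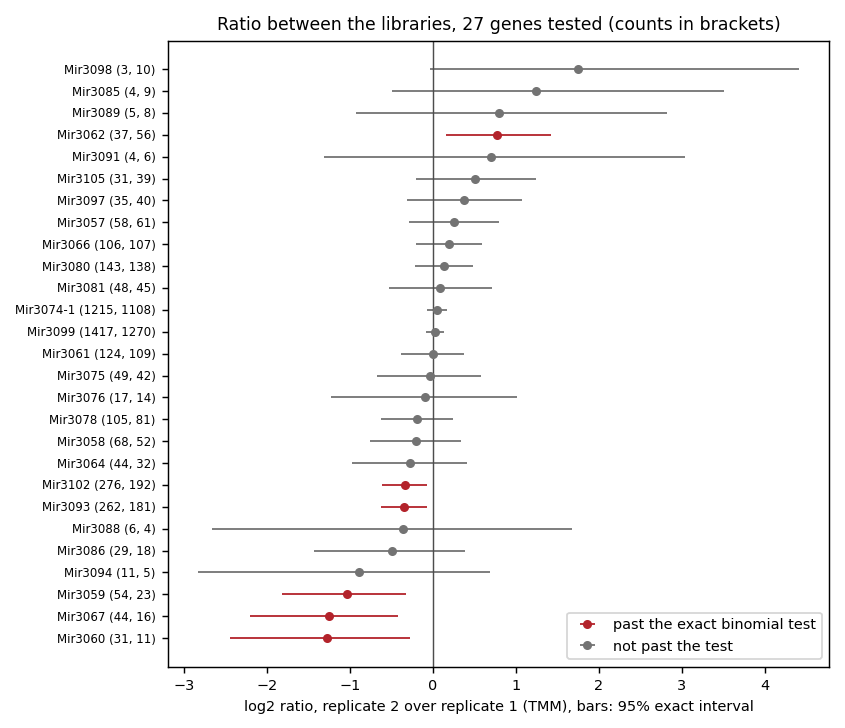
Log2 ratio of replicate 2 over replicate 1 (TMM-scaled) with 95% exact intervals for the 27 genes with at least 10 counts over both libraries, counts in brackets, red where the exact binomial test was passed. Mir3059, Mir3067 and Mir3060 lie below −1, and Mir3099 and Mir3074-1 have the narrowest intervals, both spanning 0.

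The most abundant genes had the narrowest intervals. Mir3099 had a log2 ratio of 0.026 (−0.085 to 0.14) and Mir3074-1 0.051 (−0.068 to 0.17), and neither passed the test. The sign of both turns with library totals. At the other end, Mir3098 had a log2 ratio of 1.75 from 3 and 10 counts with an interval from −0.037 to 4.42, and its adjusted p in the exact test was 0.106. Scaling bears on these ratios: with library totals in place of TMM sizes all log2 ratios shift by −0.11, and 15 of the 21 detected genes are then lower in replicate 2. The calls over all genes were 86 higher and 99 lower with TMM, 67 and 118 with DESeq2 size factors and 54 and 141 with library totals.

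Set among all numbered microRNA genes, the block had a lower share of detected genes than the first 2 bands of names and a higher share than each of the other 5. From Mir1 to Mir299, 150 of 191 genes (78.5%) were detected, and from Mir300 to Mir599, 98 of 172 (57.0%). Detection was 32.4% from Mir600 to Mir999 (33 of 102) and 26.9% from Mir1000 to Mir1999 (21 of 78), so the block at 45.7% was above both. Between Mir2000 and the block 4 genes are listed, with 0 detected. After the block, 9 of 72 genes (12.5%) were detected up to Mir5999 and 27 of 373 (7.24%) from Mir6000 onward. The median detected level was 273 CPM in the first band and 288 CPM in the second. It was 192 CPM from Mir600 to Mir999 and 26.4 CPM from Mir1000 to Mir1999, both above the 11.7 CPM of the block. After the block it was 9.21 CPM up to Mir5999 and 5.47 CPM from Mir6000 onward. No test was made between bands, whose genes differ also in how many have copies, 38.2% in the first band and 8.70% in the block.

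**Figure D4:**
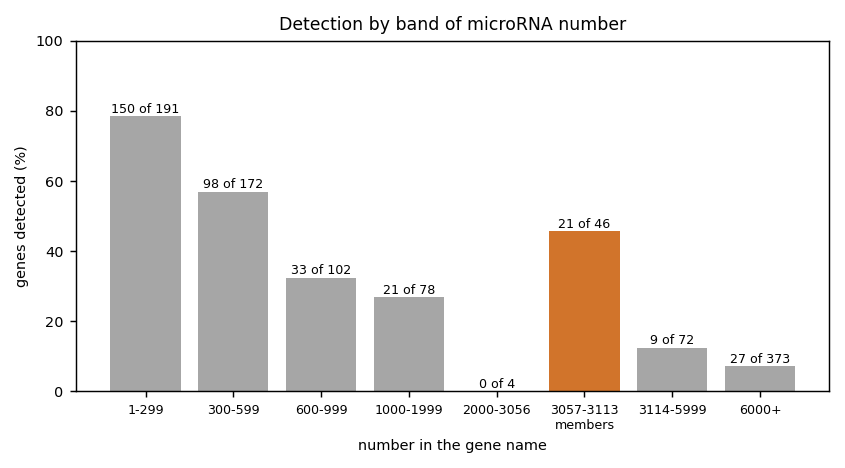
Percent of listed genes detected (at least 10 counts in each library) by band of the number in the gene name, with the counts above each bar and the block of 46 genes in orange. The block, at 21 of 46, lies between the second band (98 of 172) and the third (33 of 102), above both later bands.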

How the data were processed

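Small RNA libraries of 2 biological replicates had been sequenced. The deposited tables give raw counts for every gene on either, the own and the opposite strand, with genome build mm10 and GENCODE M4 per the deposited read-me texts; the aligner and counter were not given in the sources used here. Own-strand counts were used. Summary rows (unmapped, multi-mapped, unassigned and ambiguous, the last 0) stayed out of library sizes; unmapped reads were 16.7% and 15.0%, unassigned 3.99% and 3.71%. Names, positions and hosts came from GENCODE M21 on the same build, a host being the shortest gene on the same strand that contains the hairpin. A copy is another annotated microRNA transcript sharing an exact stretch of at least 20 nucleotides. Sequences came from RefSeq GRCm38.p6; Mir3078, Mir3079 and Mir3106 had no match. Folding used ViennaRNA 2.7.2.

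CPM were computed from gene counts. With 1 library a side no dispersion model could be fitted, so the libraries were compared with a two-sided exact binomial test with TMM sizes (edgeR 4.0.16, R 4.3.3), a prior count of 0.5 for log2 ratios, and Benjamini-Hochberg adjustment over all 475 genes with at least 10 counts over both libraries. The test was tried on simulated Poisson counts with large changes in genes with many counts. Such counts hold counting error only, so this does not cover the spread between the real libraries or genes with few counts. PCR reads are not independent molecules, so intervals (Wilson for shares, Clopper-Pearson for ratios) and limits (3 counts for a count of 0) cover counting error only. Capture efficiency of different microRNAs was not measured, so levels compare reads. Named genes were those detected, Mir3059, those past the test, the 3 just under the minimum, their neighbours within 10 kb, seed partners and hosts; genes named only for their placement were picked with values in view. The members and lists were chosen with earlier results of these data known.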

Additional observations from a re-analysis of the deposited data

Results flagged for a closer look

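Reads on the strand opposite to a gene were outside the main measurement. Opposite to Mir3074-1, where Mir24-1 lies, there were 43 reads in replicate 1 and 37 in replicate 2, above the 3 counts that a count of 0 allows. Opposite to Mir3086, in Hspa12a, there were 6 and 3 reads beside 29 and 18 on its own strand. Opposite to Mir486, where Mir3107 lies, there were 5 and 7 reads. At the places of the other antisense genes not analysed here, the reads opposite to Mir338 (where Mir3065 lies) were 0 and 1, those opposite to Mir24-2 (Mir3074-2) 2 and 0, and those opposite to Mir3073a (Mir3073b) 0 and 0.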

How the results depend on the processing

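The number of detected genes was 39 with a minimum of 1 count and 10 with a minimum of 50 counts, in place of 21, because the minimum defines detection; with 1 library left out it was 22 whichever library remained. The share of gene counts ran from 0.0951 to 0.103% with 1 library left out, was 0.0378% relative to all reads and 0.0700% without the 4 genes that have copies, mostly Mir3074-1. With no filter on low counts 720 genes were tested and 3 genes of the block passed in place of 6, all lower in replicate 2; more genes enter the adjustment there. Mir3062 had a log2 ratio of 0.67 with library totals and no longer passed (adjusted p = 0.0689, exact binomial test), so 5 genes passed. Of the 24 genes named for their own level, those whose ratio changed sign were near 0 and past no test: Mir3099 gave −0.021 with DESeq2 size factors and −0.083 with library totals, Mir3074-1 −0.058 and Mir3081 −0.018 with library totals. These shifts follow from the scaling itself. Counting either strand left the mean level of 22 of these 24 within 1 SD, Mir3080 (34.3 CPM) and Mir3081 (11.5 CPM) being the exceptions, whose SDs are small. For Mir3059 the adjusted p ran from 0.00291 to 0.0137 over the alternatives of the exact binomial test. Its log2 ratio was −0.99 with a prior count of 2, so its place beyond 1 in size depends on that setting. No paired analysis was possible because the 2 libraries form 1 group. Genes under 2.43 to 2.56 CPM are limited by depth.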
